A study of Mus musculus with 4 samples.

Results

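The genes described here are 43 genes of the cell cycle and of DNA replication, out of 22359 named genes measured on mouse colon arrays. The members were listed by name, and their probes were those other than control spots whose gene name in the deposited array files is one of the 43 symbols, which gave 58 of 39429 probes. Where a gene had several probes, the one with the highest mean log2 signal over the arrays represented it. A probe counted as detected on an array when Feature Extraction, the software that reads the scanned slide, called its signal well above background. All 43 genes were found on the array, 39 of them were well above background on all 4 arrays, and 2, Aurkb and Ccne2, on none.

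A cell that divides first loads the MCM helicase onto its replication origins with the help of Cdc6 and Cdt1, and then activates it with Cdc45 and the GINS proteins. E2F transcription factors and cyclin E drive the entry into S phase, whereas cyclins A and B with Cdk1, Foxm1 and the kinases Plk1 and Aurora carry the cell through G2 and mitosis, where kinesins and centromere proteins move the chromosomes. In the colon most of this activity lies in the crypts, whose lower cells divide and renew the epithelium, and it is a usual feature of colon tumors.

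The study asked how the loss of Pla2g3, the gene of a secreted phospholipase A2, alters colon carcinogenesis by azoxymethane (AOM), a carcinogen that acts on the distal colon. Total RNA from male mice of 42 weeks on a B6.129 background at backcross generation 3 was pooled within each of 4 groups and hybridized to 1 array per group. The groups were Pla2g3+/+ mice given saline as the vehicle, Pla2g3-/- mice given saline, Pla2g3+/+ mice given AOM and Pla2g3-/- mice given AOM. Each of 6 weekly intraperitoneal injections held AOM at 10 mg/kg, and the colons were removed 28 weeks after the last dose. The deletion is not limited to a cell type, and the wild-type mice were littermates. The number of mice in a pool is 3 to 5 in the deposited description and 4 in the text of the study, and the AOM tissue is colorectal cancer in the first and all of the descending colon in the second. From each pool, 27.7 ng of RNA was amplified and labeled with Cy3. With 1 array per group there were no replicates, no difference of 2 arrays could be given a p-value, and the number of arrays limits the precision. The measure of technical error is therefore that of the array alone. The software's own error estimate for the members' signals, 159 values, ran from 10.0% to 13.3% of the signal with a median of 10.0%, and replicate spots of a probe differed with a median SD of 0.057 to 0.066 on the log2 scale. Neither covers the differences between mice.

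The arrays were of like quality, with 64.8% to 69.4% of spots well above background, but 2 features of the pools bear on all results below. The signal of Pla2g3, the targeted gene, did not follow the labels. Its scaled signal, the intensity divided by the 75th percentile of the array, was 0.563 and 0.699 with vehicle and 0.247 and 1.5 after AOM, with the Pla2g3+/+ pool first in each pair. The pools labeled Pla2g3-/- thus stood 1.24-fold and 6.05-fold higher, and whether the probe lies in the deleted part of the gene was not tested. The makeup of the tissue also differed. The 12 smooth muscle markers, led by Tagln, Myl9 and Acta2, had a summed scaled signal of 759.9 and 807 with vehicle and 744 in the pool labeled Pla2g3-/- after AOM, but 47.7 in the Pla2g3+/+ pool after AOM, which therefore stands apart from the other 3. KO/WT with vehicle and AOM/vehicle in the pools labeled Pla2g3-/- do not use that array, but the makeup of their pools differed as well. In the second of these, 6 of 7 T cell, 5 of 7 B cell and 11 of 12 pancreatic acinar markers with a value were over 2-fold lower. None of them was higher by that much, beside 14.9% of all genes lower and 9.73% higher. In such pooled tissue, fewer dividing cells and less RNA per cell cannot be told apart.

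The 43 genes had a median log2 scaled signal of 0.06 in the Pla2g3+/+ pool and 0.42 in the pool labeled Pla2g3-/- with vehicle, and of 0.55 and -0.02 after AOM. Below, KO/WT stands for the array labeled Pla2g3-/- over the Pla2g3+/+ array and AOM/vehicle for the AOM array over the vehicle array of the same label, and the threshold was 2-fold. With vehicle, 35 of 39 genes had a KO/WT ratio above 1, where 48.3% of 16382 genes did, with a median log2 ratio of 0.40 beside -0.01 for all genes, but none differed by over 2-fold, where 1.94% of genes were higher and 1.3% lower by that much. At 1.5-fold, 10 of 39 were higher and 0 lower, beside 4.18% and 3.37% of genes. After AOM, 3 of 41 genes had a KO/WT ratio above 1, where 52.5% of 17188 genes did. Of the 41, 12 were over 2-fold lower and 0 higher, where 12.7% of all genes were lower and 15.3% higher, and the median log2 ratio was -0.69 beside 0.04 for all genes. At 1.5-fold, 26 were lower and 0 higher, beside 21.2% and 24.9%. AOM/vehicle in the Pla2g3+/+ pools gave 17 of 41 genes over 2-fold higher and 0 lower, beside 15.2% and 22.2% of 17276 genes, and at 1.5-fold 25 were higher and 1 lower, beside 24.6% and 35.1%. There 36 of 41 had a ratio above 1, beside 44.3% of genes. In the pools labeled Pla2g3-/- 2 of 40 were over 2-fold higher and 4 lower, beside 9.73% and 14.9% of 16514 genes, and at 1.5-fold 4 were higher and 12 lower, beside 20.8% and 28.3%. There 13 of 40 had a ratio above 1, beside 46.7% of genes. Of the 39 genes well above background on all arrays, 27 had their highest scaled signal in the Pla2g3+/+ pool after AOM and none had its lowest there. For 18 the lowest signal was in the Pla2g3+/+ vehicle pool, and for 19 it was in the pool labeled Pla2g3-/- after AOM. These counts were not made for all genes, so no share stands beside them, and they depend on the scaling. Without it, Cdc20, Ube2c and Aurka, counted among the 19, were lowest in the Pla2g3+/+ vehicle pool.

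**Figure D1:**
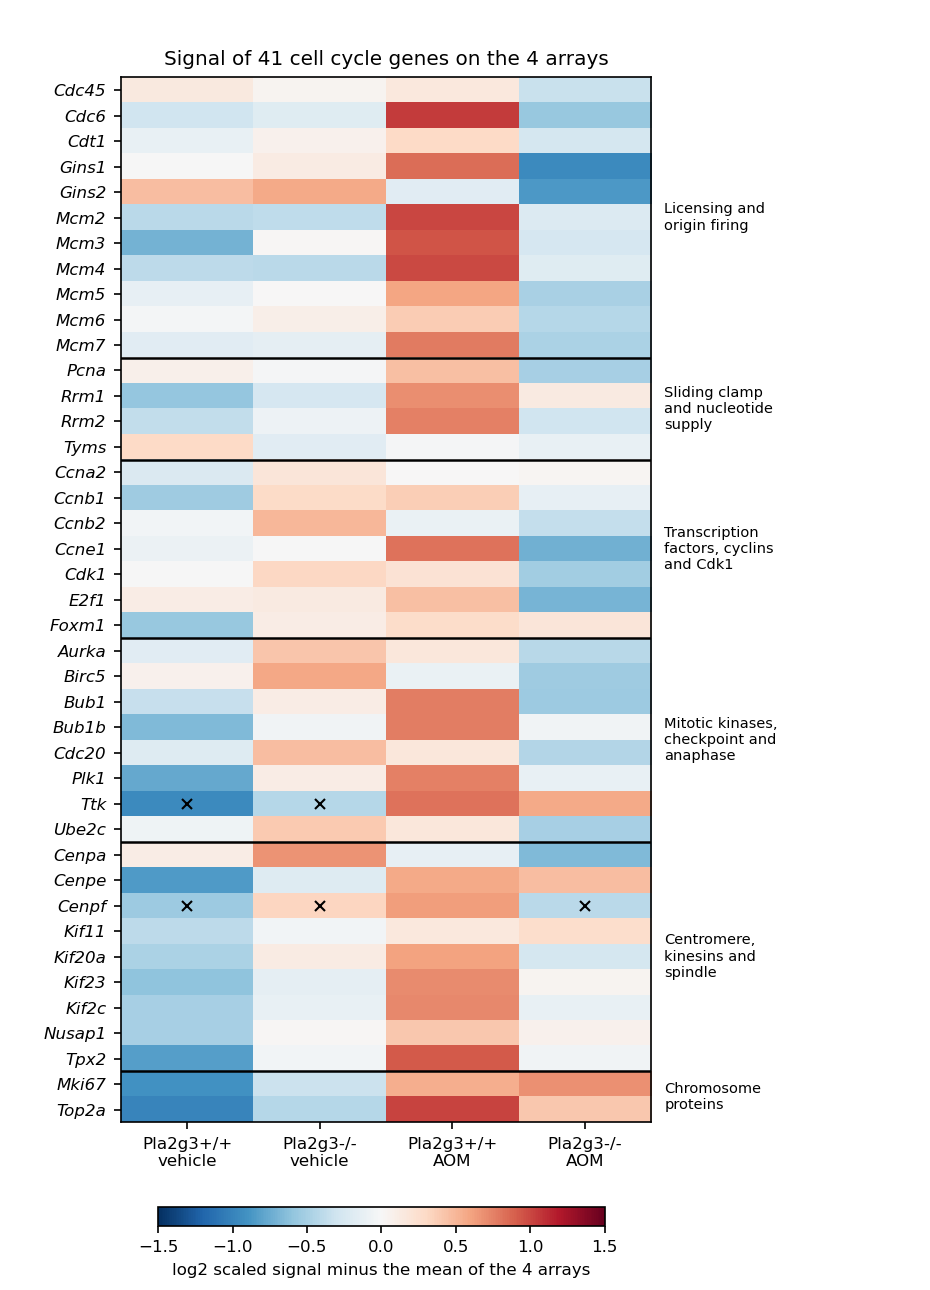
Scaled signal of the 41 cell cycle genes detected on at least 1 array, by role group and array, as the log2 difference from the gene's own mean over the 4 arrays (red above it, blue below it), with a cross where the probe was not well above background. Red is most frequent in the column of the Pla2g3+/+ pool after AOM, where 27 of 39 fully detected genes have their highest signal, and Mki67 and Kif11 are highest in the pool labeled Pla2g3-/- after AOM.

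The 4 ratios share arrays, so that a high signal in 1 pool raises or lowers several of them at once, and each was read on its own. The Pla2g3+/+ AOM array enters both the KO/WT ratio after AOM and the AOM/vehicle ratio of that genotype. The limits of the scaling also need to be stated, because the raw 75th percentile of an array was 609.3 and 609.2 with vehicle but 1231 and 1092 after AOM. Without any scaling, the median log2 AOM/vehicle ratio of all genes well above background on both arrays moved from -0.16 to 0.86 in the Pla2g3+/+ pools and from -0.09 to 0.75 in the pools labeled Pla2g3-/-. The KO/WT ratios with vehicle hardly moved, since the percentiles of those 2 arrays were nearly equal.

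**Figure D2:**
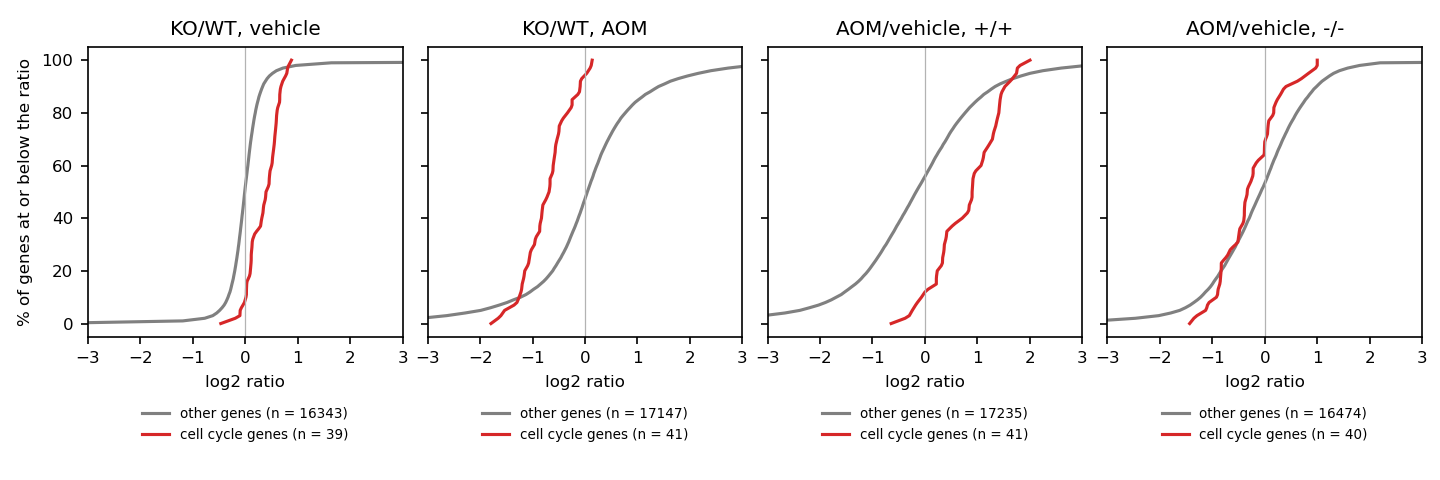
Cumulative distributions of the log2 ratio in the 4 comparisons (x axis) as the percentage of genes at or below it (y axis), for the cell cycle genes (red) and the other genes with a value (gray). The red curve lies right of the gray curve through most of its height for KO/WT with vehicle and for AOM/vehicle in the Pla2g3+/+ pools (medians 0.40 and 0.90), and left of it for KO/WT after AOM (median -0.69).

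Genes of the cell cycle are often read by the elements in their promoters. The CCAAT box, bound by NF-Y, is found in many of them, the cell cycle genes homology region (CHR) in genes of G2 and mitosis, and E2F sites in genes of replication. RefSeq promoters of build GRCm38.p6, 250 bases before to 50 bases after the start, were given for 34 of the 43 genes (35 promoters). Aurkb, Ccna2, Ccne2, Foxm1, Gins1, Gins2, Kif20a, Mcm4 and Tpx2 had no entry. On either strand, CCAAT was present in 27 of 35 promoters (77.1%), beside 37.4% of all 32851 promoters. The CHR letters, TTTGAA or TTCGAA, were present in 19 (54.3%), beside 19.2%, and the E2F letters, either TTTCGCG or else TTTGGCG, or else TTTCCCG, or lastly TTTGCCG, in 9 (25.7%), beside 6.70%. The kinds of match were spread unevenly over the role groups, which was not tested. E2F letters were found in 6 of 9 promoters of licensing and origin firing genes and in no more than 1 of any other group. CHR letters were found in 7 of 8 promoters of mitotic kinases and checkpoint genes, 5 of 7 of centromere, kinesin and spindle genes and both of the chromosome protein genes, but in 3 of 9 of licensing genes and 0 of 4 of the clamp and nucleotide supply genes. With only the bases before the start, the counts were 27, 12 and 7 promoters (all promoters, 33.9%, 17.2% and 5.51%). In that shorter window CHR letters were as frequent in licensing genes, 3 of 9, as in mitotic kinases and checkpoint genes, 3 of 8, and centromere, kinesin and spindle genes, 2 of 7, so that the unequal spread between these 3 groups rests on the bases after the start. E2F letters were left in 4 of 9 licensing promoters. A match is a run of letters and not a measured site, and a missing match says nothing of the factor.

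For each role group, the 250 bases before the start are shown for the gene whose KO/WT ratio after AOM was farthest from 1 among those with an entry, with matches in capitals. Plk1 was added for its KO/WT ratio with vehicle, Mcm6 for the number of its E2F matches and Cdk1 because it holds all 3 kinds of match, and these were chosen after the values were seen. The sequences run 5′ to 3′ on the strand of the gene.
Cdc6 (GRCm38.p6 chr11:98907901-98908150, plus strand): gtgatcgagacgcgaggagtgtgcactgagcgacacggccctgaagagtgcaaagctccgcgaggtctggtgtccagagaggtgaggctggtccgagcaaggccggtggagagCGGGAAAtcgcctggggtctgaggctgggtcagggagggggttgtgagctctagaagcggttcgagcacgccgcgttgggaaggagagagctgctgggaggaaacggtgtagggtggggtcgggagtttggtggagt
Rrm2 (GRCm38.p6 chr12:24708004-24708253, plus strand): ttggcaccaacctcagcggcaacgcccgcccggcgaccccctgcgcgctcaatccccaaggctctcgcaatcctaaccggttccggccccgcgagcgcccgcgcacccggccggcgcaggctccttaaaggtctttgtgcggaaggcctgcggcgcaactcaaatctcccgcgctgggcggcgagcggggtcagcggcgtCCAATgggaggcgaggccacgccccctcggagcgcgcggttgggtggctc
Ccne1 (GRCm38.p6 chr7:38107491-38107740, minus strand): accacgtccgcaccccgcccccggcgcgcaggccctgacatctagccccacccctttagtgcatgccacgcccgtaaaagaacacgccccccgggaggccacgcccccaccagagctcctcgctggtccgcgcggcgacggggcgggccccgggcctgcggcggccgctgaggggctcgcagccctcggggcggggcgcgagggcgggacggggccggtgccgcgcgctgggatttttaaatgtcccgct
Bub1 (GRCm38.p6 chr2:127831860-127832109, minus strand): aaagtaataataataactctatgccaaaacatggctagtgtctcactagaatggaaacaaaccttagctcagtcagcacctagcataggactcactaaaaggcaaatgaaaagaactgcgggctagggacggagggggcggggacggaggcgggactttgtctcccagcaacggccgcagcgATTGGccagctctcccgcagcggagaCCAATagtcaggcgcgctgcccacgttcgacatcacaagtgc
Cenpf (GRCm38.p6 chr1:189688087-189688336, minus strand): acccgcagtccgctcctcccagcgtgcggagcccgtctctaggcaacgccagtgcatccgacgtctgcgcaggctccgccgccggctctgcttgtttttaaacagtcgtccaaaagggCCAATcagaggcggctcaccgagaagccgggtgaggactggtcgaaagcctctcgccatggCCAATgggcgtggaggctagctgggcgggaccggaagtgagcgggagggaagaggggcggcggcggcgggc
Top2a (GRCm38.p6 chr11:99024190-99024439, minus strand): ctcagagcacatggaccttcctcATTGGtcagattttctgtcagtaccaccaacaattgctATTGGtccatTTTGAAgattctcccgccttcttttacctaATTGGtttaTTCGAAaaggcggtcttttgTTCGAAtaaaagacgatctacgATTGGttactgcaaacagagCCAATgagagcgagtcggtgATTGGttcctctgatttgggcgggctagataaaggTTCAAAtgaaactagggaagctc
Plk1 (GRCm38.p6 chr7:122159185-122159434, plus strand): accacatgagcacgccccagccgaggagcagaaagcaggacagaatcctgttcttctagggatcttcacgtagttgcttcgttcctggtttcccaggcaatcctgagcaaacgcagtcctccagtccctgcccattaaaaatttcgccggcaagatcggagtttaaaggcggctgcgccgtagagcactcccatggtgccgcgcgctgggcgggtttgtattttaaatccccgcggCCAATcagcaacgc
Mcm6 (GRCm38.p6 chr1:128359706-128359955, minus strand): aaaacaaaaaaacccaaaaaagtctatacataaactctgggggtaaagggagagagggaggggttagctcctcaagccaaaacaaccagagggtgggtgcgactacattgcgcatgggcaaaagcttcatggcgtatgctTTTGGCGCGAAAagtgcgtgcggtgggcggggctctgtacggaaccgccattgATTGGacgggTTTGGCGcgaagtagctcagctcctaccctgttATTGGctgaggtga
Cdk1 (GRCm38.p6 chr10:69352913-69353162, minus strand): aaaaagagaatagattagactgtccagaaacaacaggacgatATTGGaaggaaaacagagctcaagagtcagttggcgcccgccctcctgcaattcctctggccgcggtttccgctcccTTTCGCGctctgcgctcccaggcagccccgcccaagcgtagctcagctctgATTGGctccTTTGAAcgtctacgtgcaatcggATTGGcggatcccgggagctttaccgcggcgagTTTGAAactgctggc
The replication genes Cdc6 and Mcm6 carry E2F letters, at 1 and 3 places, whereas Top2a, a gene of late S phase to mitosis, has 6 CCAAT and 4 CHR matches and no E2F letters. Ccne1 holds none of these letters in this window.

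Licensing and origin firing genes, 11 in all, had the lowest median KO/WT ratio of the 6 role groups after AOM. Their median log2 KO/WT ratio went from 0.11 with vehicle to -1.17 after AOM. After AOM, 7 of 11 were over 2-fold lower and 0 higher, beside 12.7% and 15.3% of all genes. The Mcm2 to Mcm7 proteins form the ring of the replicative helicase. Mcm2 had a scaled signal of 0.550 and 0.558 with vehicle and 1.46 and 0.631 after AOM, again with the Pla2g3+/+ pool first. Mcm4 had 1.96 and 1.93 with vehicle and 5.08 and 2.26 after AOM, and Mcm7 had 3.56 and 3.63 with vehicle and 6.86 and 2.87 after AOM. For all 3 the Pla2g3+/+ pool after AOM stood above the other pools, which differed by less among themselves. The KO/WT ratio after AOM was 2.32-fold lower for Mcm2, 2.25-fold for Mcm4, 2.39-fold for Mcm7 and 2.11-fold for Mcm5, and Mcm6 was 1.75-fold lower. Mcm3 had 1.21 and 1.98 with vehicle and 3.78 and 1.65 after AOM, so that it was 1.64-fold higher with vehicle and 2.3-fold lower after AOM in the pools labeled Pla2g3-/-. Its other probe, which overlaps the first, gave a log2 KO/WT ratio of -0.42 with vehicle and -0.98 after AOM, so the higher value with vehicle rests on 1 probe.

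The factors that load and switch on the helicase moved unequally. Gins1, a subunit of the GINS complex, had a scaled signal of 0.710 and 0.780 with vehicle and 1.28 and 0.368 after AOM, and was 3.47-fold lower in the pool labeled Pla2g3-/-, farther than any other of the 41 genes. Its signal there was also 2.12-fold lower than in the vehicle pool of the same label, a value that was within 2-fold without scaling (log2 -0.24), scaled by epithelial markers (-0.81) and with normexp and quantile normalization (-0.85). Cdc6, the loader of the helicase, had 0.0889 and 0.0963 with vehicle and 0.227 and 0.0736 after AOM, a 3.08-fold lower value, and its other probe gave a log2 ratio of -1.31 beside -1.62. With normexp, a model-based background correction, and quantile normalization the log2 ratio of Cdc6 was -0.75, within 2-fold. Both genes were high in 1 pool only, the Pla2g3+/+ pool after AOM. Gins2, another GINS subunit, differed as scaled here, with 0.698 and 0.750 with vehicle and 0.447 and 0.278 after AOM. Both AOM pools thus lay below both vehicle pools, and the pool labeled Pla2g3-/- was 2.70-fold below its vehicle pool (log2 -0.59 without scaling). Without scaling, the signal of Gins2 was 426 and 457 with vehicle and 550 and 303 after AOM, highest in the Pla2g3+/+ pool after AOM. Cdt1, the partner of Cdc6, and Cdc45, which joins the active helicase, had log2 KO/WT ratios after AOM of -0.56 and -0.50, within 2-fold.

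The genes of the sliding clamp and of nucleotide supply, 4 in all, had a median log2 KO/WT ratio of 0.10 with vehicle and -0.76 after AOM. Rrm2, the regulated subunit of ribonucleotide reductase, had 1.89 and 2.31 with vehicle and 4.14 and 1.98 after AOM and was 2.09-fold lower in the pool labeled Pla2g3-/-. Its partner Rrm1 had 1.17 and 1.48 with vehicle and 2.85 and 1.92 after AOM, where both AOM pools lay above both vehicle pools, and it was 2.44-fold higher with AOM in the Pla2g3+/+ pools and 1.30-fold in the others. Pcna, the clamp that holds the polymerases on DNA, had 11.4 and 10.7 with vehicle and 14.8 and 7.67 after AOM, a 1.93-fold lower value after AOM, within the threshold as scaled here but past it, among others, without scaling (log2 -1.12) and with quantile normalization (-1.19). Tyms, thymidylate synthase, had 0.139 and 0.10 with vehicle and 0.112 and 0.105 after AOM. Its KO/WT ratio was the lowest of the cell cycle genes with vehicle (log2 -0.47) and near 1 after AOM (log2 -0.09).

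Among the transcription factors, cyclins and Cdk1, the genes of the G1 to S transition had lower KO/WT ratios than those of G2 and mitosis. Ccne1, cyclin E1, had a scaled signal of 1.52 and 1.62 with vehicle and 2.86 and 0.987 after AOM, and E2f1 had 0.468 and 0.476 with vehicle and 0.590 and 0.266 after AOM. Their KO/WT ratios were near 1 with vehicle, and after AOM Ccne1 was 2.90-fold and E2f1 2.22-fold lower. In the pool labeled Pla2g3-/- after AOM, both had their lowest scaled signal of the 4 arrays. Without scaling, both were lowest in the Pla2g3+/+ vehicle pool. The value of E2f1 was within 2-fold with normexp and quantile normalization (log2 -0.86). Ccnb1, cyclin B1, had 1.38 and 2.42 with vehicle and 2.57 and 1.83 after AOM, so that it was 1.76-fold higher with vehicle and 1.41-fold lower after AOM in the pools labeled Pla2g3-/-, and its other 2 probes gave log2 ratios of 0.52 and 0.83 with vehicle and of -0.75 and -0.73 after AOM. Ccnb2 and Ccna2 had log2 KO/WT ratios of 0.54 and 0.40 with vehicle and of -0.25 and 0.03 after AOM. Foxm1, the transcription factor of G2 genes, had 0.260 and 0.415 with vehicle and 0.464 and 0.437 after AOM, with the Pla2g3+/+ vehicle pool below the other 3. Cdk1, the kinase that these cyclins activate, had 1.08 and 1.34 with vehicle and 1.26 and 0.755 after AOM, a log2 KO/WT ratio of -0.74 after AOM, but of its 3 probes a dim one gave 1.1. With the probes and scaling used here, no gene of this group passed 2-fold with AOM in either genotype.

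The mitotic kinases, checkpoint and anaphase genes had a median log2 KO/WT ratio of 0.58 with vehicle, level with that of the chromosome proteins (0.58), and all 7 that could be compared lay between 0.45 and 0.88. After AOM, the ratios of all 8 were below 1, with a median of -0.64. Plk1, a kinase of mitotic entry and spindle assembly, had a scaled signal of 1.87 and 3.44 with vehicle and 5.38 and 2.95 after AOM. Plk1 was thus 1.84-fold higher with vehicle, the largest KO/WT ratio among the cell cycle genes there, and 1.82-fold lower after AOM. Bub1, a kinase of the spindle checkpoint, had 0.213 and 0.292 with vehicle and 0.461 and 0.186 after AOM and was 2.48-fold lower after AOM. As scaled here it was the only gene of this group past 2-fold, but with normexp and quantile normalization it was within 2-fold (log2 -0.84), and Plk1 was past it without scaling (-1.04) and with quantile normalization (-1.01), among others. Bub1b, the partner of Bub1, had 0.196 and 0.299 with vehicle and 0.529 and 0.299 after AOM, where the 2 pools labeled Pla2g3-/- lay between the Pla2g3+/+ pools. Cdc20 and Ube2c, which direct the anaphase-promoting complex, Aurka, the Aurora kinase of spindle poles, and Birc5, a subunit of the chromosomal passenger complex, formed another pattern. As scaled here, their highest signal was in the vehicle pool labeled Pla2g3-/- and their lowest in the AOM pool of the same label. Cdc20 had 4.15 and 6.55 with vehicle and 5.34 and 3.50 after AOM. Birc5 had 11.9 and 17 with vehicle and 10.6 and 7.86 after AOM. Without scaling, all of these genes were highest in the Pla2g3+/+ AOM pool and lowest in the Pla2g3+/+ vehicle pool. The unscaled signal of Cdc20 was 2529 and 3990 with vehicle and 6570 and 3823 after AOM. Within the label Pla2g3-/-, the scaled AOM/vehicle ratio was 1.87-fold lower for Cdc20, 1.86-fold for Ube2c, 1.78-fold for Aurka and 2.17-fold for Birc5. That of Birc5 was within 2-fold under other scalings (log2 from -0.85 to -0.28). The 3 probes of Birc5 gave log2 KO/WT ratios after AOM of -0.43, -0.46 and -0.49. Ttk, the kinase that starts the spindle checkpoint, was well above background on the AOM arrays only, where its signal was 0.0672 and 0.0566, so that it was at least 3.41-fold higher with AOM in the Pla2g3+/+ pools and at least 2.0-fold in the others. With normexp and quantile normalization its log2 AOM/vehicle ratios were 0.52 and 0.29, both within 2-fold, and in the pools labeled Pla2g3-/- it was also just within 2-fold in the deposited table of processed values.

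The centromere, kinesin and spindle genes had median log2 KO/WT ratios of 0.53 with vehicle and -0.67 after AOM. With AOM in the Pla2g3+/+ pools, 5 of 9 were over 2-fold higher and 0 lower, beside 15.2% and 22.2% of all genes. Tpx2, which activates Aurora A on the spindle, had a scaled signal of 0.293 and 0.506 with vehicle and 0.983 and 0.504 after AOM and was 3.36-fold higher with AOM in the Pla2g3+/+ pools. A second, dim probe of Tpx2 gave a log2 AOM/vehicle ratio of -1.04 in the same pools, so the direction there rests on the probe. Cenpe, a kinesin of the kinetochore, had 1.04 and 1.65 with vehicle and 2.80 and 2.59 after AOM, so that it was high in both AOM pools, 2.68-fold and 1.57-fold over vehicle. Kif20a and Kif23, kinesins of cytokinesis, and Kif2c, which takes microtubules apart, were 2.10-, 2.48- and 2.32-fold higher with AOM in the Pla2g3+/+ pools, beside log2 ratios of -0.39, 0.17 and -0.01 in the others. With normexp and quantile normalization the values in the Pla2g3+/+ pools were within 2-fold for all 3 (log2 0.89, 0.87 and 0.64). A dim second probe of Kif23 gave a log2 KO/WT ratio after AOM of 2.12, beside -0.67. Kif11, the kinesin that separates the spindle poles, and Nusap1, a spindle protein, stayed within 2-fold in the 4 ratios, with KO/WT ratios after AOM of 0.11 and -0.34 on the log2 scale. Cenpa, the histone of the centromere, had 1.57 and 2.31 with vehicle and 1.33 and 0.921 after AOM and was 2.51-fold lower with AOM in the pools labeled Pla2g3-/-, with a log2 ratio of -0.49 without scaling. Cenpf, a kinetochore protein, was well above background only in the Pla2g3+/+ pool after AOM, at least 2.06-fold above the pool labeled Pla2g3-/-, a bound from a signal near the background. The call depends on the floor, since the log2 ratio was -0.45 with the floor set after scaling and -0.23 with normexp and quantile normalization.

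**Figure D3:**
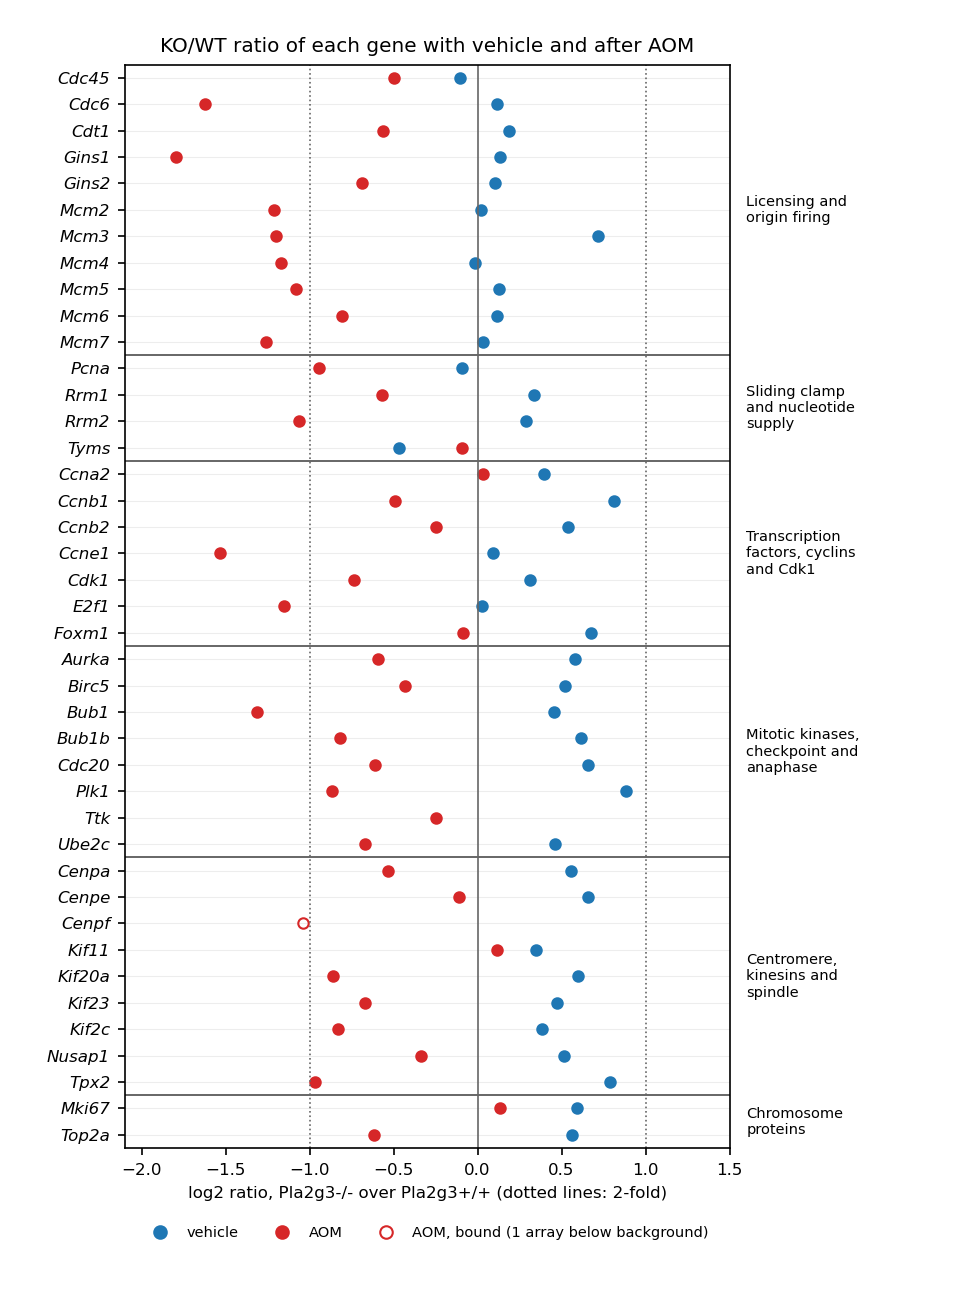
Log2 KO/WT ratio (x axis) of each cell cycle gene with vehicle (blue) and after AOM (red), by role group; the open circle is a bound and the dotted lines mark 2-fold. Blue points of the mitotic, centromere and chromosome groups lie right of 0, those of the licensing genes lie near 0 except Mcm3, and the red points lie left of 0 except Ccna2, Kif11 and Mki67.

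Mki67 and Top2a, the chromosome proteins, are the usual marks of dividing cells, Mki67 as the antigen Ki-67 and Top2a as the enzyme that untangles DNA. Mki67 had a scaled signal of 3.06 and 4.61 with vehicle and 8.41 and 9.24 after AOM, and Top2a had 0.392 and 0.579 with vehicle and 1.57 and 1.03 after AOM. Both AOM pools were above both vehicle pools for either gene. With AOM, Mki67 was 2.75-fold higher in the Pla2g3+/+ pools and 2.0-fold in the others, and Top2a was 4.01-fold and 1.77-fold higher. Unlike the licensing genes, Mki67 had a KO/WT ratio close to 1 after AOM (1.1-fold), and its second probe gave a log2 ratio of 0.15 beside 0.14. The value of Mki67 in the pools labeled Pla2g3-/- stands so close to the threshold that it was within 2-fold in the deposited table of processed values.

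The difference of the 2 KO/WT ratios, after AOM minus with vehicle, equals the difference of the 2 AOM/vehicle ratios and was below 0 in 38 of 39 genes, beside 46.3% of 14785 genes. It was under -1 on the log2 scale in 24 of 39 (12.1% of genes) and over 1 in 0 (14.7% of genes), with a median of -1.15 beside 0.06 for all genes. It ran from -1.93 in Gins1 to 0.37 in Tyms. There was no residual degree of freedom to test it. The single fit that the 4 arrays allow, limma with treatment and genotype as additive terms and 1 residual degree of freedom, called none of the 40 cell cycle genes it tested and none of 16499 genes for either term. For treatment the lowest adjusted p among the cell cycle genes was 0.298 (limma), that of Mki67, with 2 of 40 at an unadjusted p under 0.05 beside 2715 genes, or 16.5%. For genotype the lowest adjusted p was 0.996 (limma), with 0 of 40 at an unadjusted p under 0.05 beside 160 genes, or 0.97%. That fit looks for changes alike in both treatments or both genotypes, and the ratios above were not alike.

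**Figure D4:**
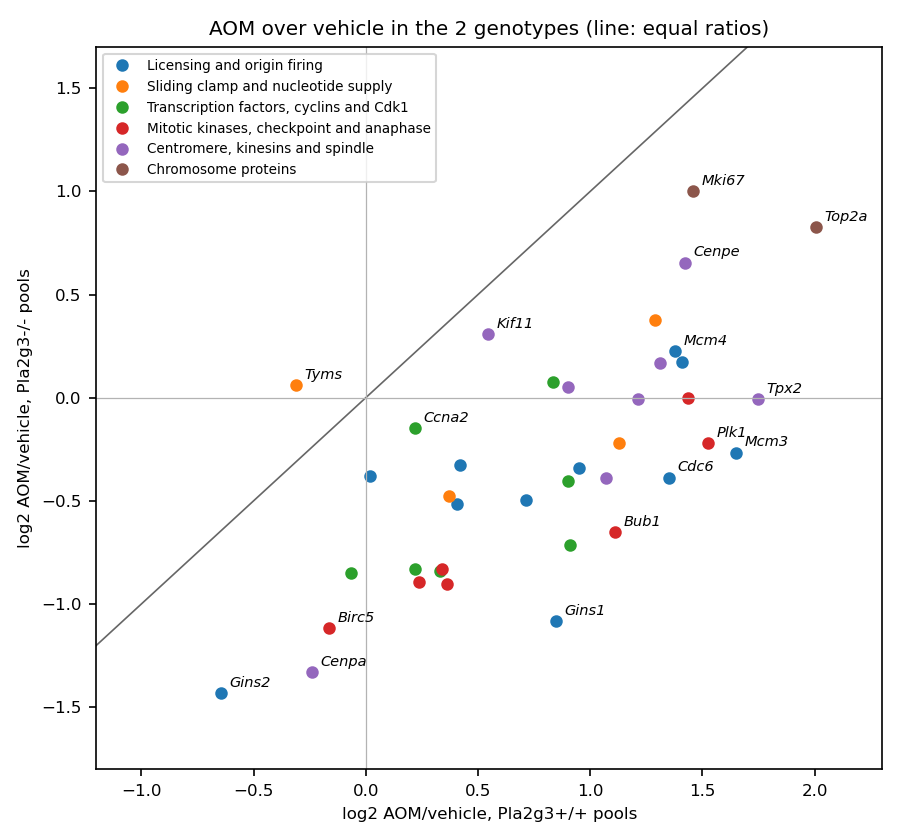
Log2 AOM/vehicle ratio in the Pla2g3+/+ pools (x axis) against that in the pools labeled Pla2g3-/- (y axis) for the 39 cell cycle genes well above background on all arrays, colored by role group, with the line of equal ratios. Tyms is the only gene above the line, and Gins1, Gins2, Birc5 and Cenpa lie below -1 on the y axis.

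The full order of the role groups changed between 12 ways to scale, correct or summarize the arrays, and some of its features did not. In all 12 the medians of the licensing and clamp groups with vehicle lay below those of the mitotic, centromere and chromosome groups. After AOM the licensing group had the lowest median KO/WT ratio of the 6 groups in all 12 (from -2.31 to -1.05). The chromosome group had the highest. Much of this agreement was fixed in advance. Scaling by the median, by the epithelial list or not at all, and the deposited table, moved all group medians of a ratio alike. These settings could not change the order. The licensing median after AOM stayed at -1.17 with no filter on dim probes, only genes detected on both arrays or a floor after scaling. All 12 use the same arrays, and the role groups were chosen with earlier results known. The mitotic and centromere groups changed places after AOM, with medians of -0.64 and -0.67 as scaled here and -0.67 and -0.41 with normexp and quantile normalization. The groups hold between 2 and 11 genes, and no test stands behind their order.

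Other genes of the same pathways, from lists that hold none of the 43, were compared in the same way. Of 45 further replication genes, KO/WT after AOM was lower by over 2-fold for 9 and higher for 0, with a median log2 ratio of -0.51. That is 20.0% lower beside 12.7% of all genes. Pole, the catalytic subunit of polymerase epsilon, was 3.53-fold lower and Orc1, of the origin recognition complex, 3.47-fold lower, and the highest ratio was that of Gins3, with a log2 value of 0.29. Of 65 further mitotic genes, 4 were lower and 0 higher (median -0.42), or 6.15%, a smaller share than that of all genes. The lowest were Cks1b, a partner of cyclin-dependent kinases (2.81-fold), and Cenpm, a centromere protein (2.72-fold), while Zw10 and Cdc25a had log2 ratios of 0.42 and 0.25. With vehicle, 60 of the 65 had a KO/WT ratio above 1 (median 0.30), against 48.3% of all genes and 30 of 44 further replication genes (median 0.07). Of 17 checkpoint and recombination genes 1 was over 2-fold lower after AOM, Exo1, an exonuclease (2.68-fold), which is 5.88% and again a smaller share than over all genes. Wee1 and Atm, kinases of the checkpoints, had log2 ratios of 0.47 and 0.05.

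The regulators above these genes were mixed. Of 27 regulators of G1 and of the DREAM complex, which holds cell cycle genes silent, KO/WT after AOM was lower by over 2-fold for 7 (25.9%) and higher for 1 (3.70%). Of all genes, 12.7% were lower and 15.3% higher. The list was not shifted as a whole, with a median log2 ratio of -0.06 and 13 of 27 above 0. Ccnd1, cyclin D1, had a scaled signal of 3.02 and 3.43 with vehicle and 10.9 and 2.44 after AOM and was 4.48-fold lower. Mycn, a Myc family transcription factor, was 4.37-fold lower, whereas Rbl2, a pocket protein of DREAM, was 2.83-fold higher and its relative Rb1 had a log2 ratio of 0.76. Of 7 inhibitors of cyclin-dependent kinases, Cdkn2a had 0.0145 and 0.0343 with vehicle and 3.85 and 0.0620 after AOM, 62.1-fold lower in the pool labeled Pla2g3-/-, with the Pla2g3+/+ pool after AOM far above the other 3. Cdkn1c was 5.64-fold lower and Cdkn1b 2.42-fold higher, and Cdkn2c had a log2 ratio of 0.67.

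Markers of other cell types moved with these ratios, most of them after AOM. In KO/WT after AOM, 15.3% of all genes were over 2-fold higher and 12.7% lower. There 12 of 12 smooth muscle markers were over 2-fold higher (median log2 ratio 4.12) and 9 of 10 markers of mature colonocytes (2.42). The brightest of these colonocyte markers were Guca2a, Car1 and Krt20. By contrast, 10 of 13 crypt stem cell and Wnt target genes were lower (-2.24), among them Smoc2 and Rnf43. Of 12 epithelial markers, 3 were higher (median 0.73), and their summed scaled signal was 749 and 791 with vehicle and 434 and 690.8 after AOM. The summed signal of the crypt and Wnt list was 33.5 and 35.8 with vehicle, 117.9 in the Pla2g3+/+ pool after AOM and 36.2 in the other, and the sum for the 43 genes was 78.3, 99.7, 119.5 and 75.1. B cells and T cells also divide in the colon. In KO/WT after AOM, 5 of 7 markers of each with a value were over 2-fold lower (medians -2.42 and -1.47). Of the B cell markers, 1 was over 2-fold higher, and only 4 of the 7 were detected on both arrays. Fibroblast, macrophage and neutrophil markers, 6 of each, differed between the pools as well. In the pools labeled Pla2g3-/-, AOM/vehicle was over 2-fold higher for 3 of 6, 1 of 6 and 3 of 5 with a value. It was over 2-fold lower for 0, 0 and 1 (medians 0.98, -0.25 and 1.06). With AOM in the Pla2g3+/+ pools 4 of each list were over 2-fold higher (medians 2.36, 1.22 and 3.00), and 1 macrophage marker was over 2-fold lower. In KO/WT after AOM 3, 4 and 4 were over 2-fold lower and 1 of each higher (medians -1.09, -1.05 and -4.41). Their median KO/WT ratios with vehicle were 0.25, 0.38 and 0.03, beside 0.40 for the cell cycle genes. Of 6 squamous epithelium markers with a value, 1 was higher, at a log2 ratio of 9.18, and 0 lower in KO/WT after AOM. The summed scaled signal of that list, 10 genes, was 6.65 and 6.04 with vehicle and 6.91 and 25.3 after AOM. In AOM/vehicle of the pools labeled Pla2g3-/-, 3 of 7 with a value were over 2-fold higher, up to a log2 ratio of 8.22, and 1 lower. In the Pla2g3+/+ pools 2 of 7 were higher and 3 lower. Of 4 germinal center B cell markers with a value, 1 was higher and 1 lower, and Gcsam was well above background on no array. With vehicle, the 12 pancreatic acinar markers, among them Pnliprp1 and Ctrb1, all had KO/WT higher by over 2-fold, with a summed signal of 15.1 beside 0.926. The smooth muscle, epithelial, crypt, colonocyte, T cell and B cell lists had 0 genes past 2-fold in that comparison. What part these markers have in the ratios of the cell cycle genes was not tested. Scaled by the epithelial list in place of the 75th percentile, the median log2 ratio of the cell cycle genes after AOM was -1.83 and that of all genes well above background on both arrays -1.09.

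**Figure D5:**
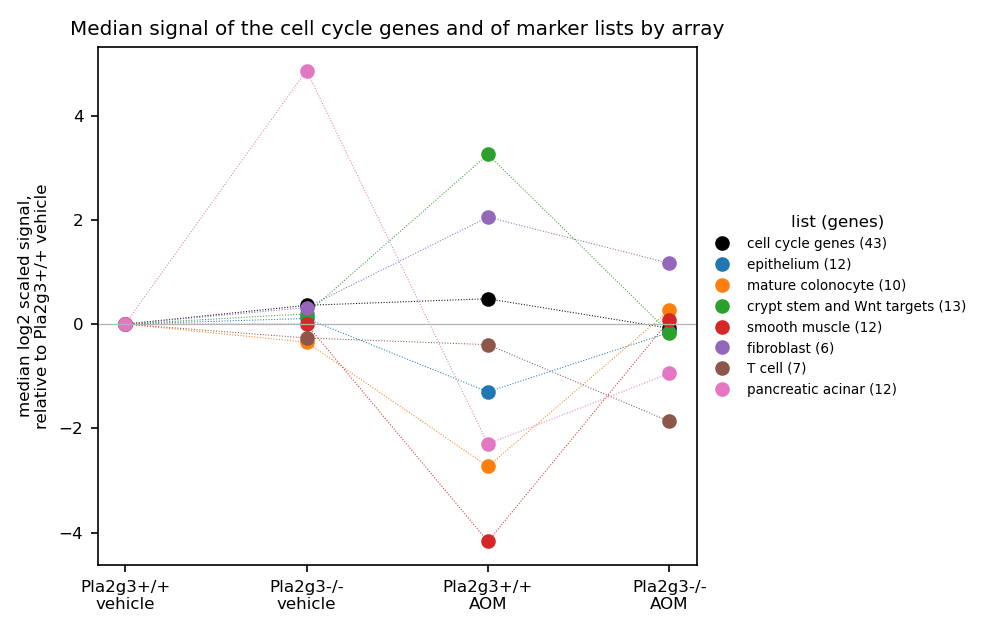
Median log2 scaled signal of the 43 cell cycle genes (black) and of 7 marker lists on each array, as the difference from the Pla2g3+/+ vehicle pool; the number of genes in each list is in brackets. Smooth muscle and colonocyte markers are low and crypt markers high in the Pla2g3+/+ pool after AOM, and acinar markers are high in the vehicle pool labeled Pla2g3-/-, while the medians of the cell cycle genes, before that subtraction, run from -0.02 to 0.55.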

How the data were processed

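Total RNA of each pool was labeled with Cy3 and hybridized to 1 one-color Agilent Whole Mouse Genome array, with groups read from the labels of the samples. The authors deposited each spot's processed intensity, which Feature Extraction 11.5.1.1 had corrected for background and spatial trend, with no scaling between arrays, together with flags for control, outlier, saturated and well above background spots. The authors' value table holds a ratio, that intensity over the 75th percentile of its array. No spot was saturated. Control and outlier spots were left out, log2 intensities of replicate spots were averaged, and the 75th percentile of log2 values over the probes was subtracted. Where just 1 array of a pair detected a probe, the other array was given its lowest detected signal, or the probe's own if higher, and the fold is written as "at least". Probe coordinates are on mm9 and were not used with the promoters, which come from RefSeq tables of GRCm38.p6.

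No test of a pair of arrays was possible. The additive fit used limma 3.58.1 in R 4.3.3 on genes well above background on at least 2 arrays, with Benjamini-Hochberg adjustment at 0.05. It was run on simulated data in which treatment effects were alike in both genotypes. The ratios of the cell cycle genes were not, so that the simulation does not show how the fit performs on them. The rest was done in Python 3.11.15 (pandas 2.3.3, numpy 2.4.6, matplotlib 3.10.9). The alternatives were scaling by the median, by the epithelial list or not at all, quantile normalization, normexp correction with an offset of 50 before it, the mean over probes, the dimmest probe, no filter on dim probes, genes well above background on both arrays, a floor after scaling, the deposited table and thresholds of 1.5-fold and 4-fold, and for limma an intensity trend. All 43 members are named, with the 2 highest and 2 lowest genes of each further list after AOM and the 3 brightest of a marker list that is discussed, except that some of these genes are not reported here. The members, lists and role groups were chosen with earlier results of these data known.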

Additional observations from a re-analysis of the deposited data

Results flagged for a closer look

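For 9 genes, the effect in 1 pair of pools ran over 1.5-fold one way and that in the other pair over 1.5-fold the opposite way. Each value rests on 4 single arrays, and the difference was not tested. The same count was not made over all genes, so whether 9 is more than their share is not known.

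In 6 of them the KO/WT ratio was above 1 with vehicle and below 1 after AOM. The log2 difference, KO/WT after AOM minus KO/WT with vehicle, was -1.92 for Mcm3, -1.76 for Tpx2, -1.75 for Plk1, -1.46 for Kif20a, -1.43 for Bub1b and -1.27 for Cdc20. All but Mcm3 act in mitosis. With the other probe of Mcm3 and with the other probe of Tpx2 the KO/WT ratio with vehicle was below 1, so that these 2 genes depend on the probe.

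In the other 3 the AOM/vehicle ratio, as scaled here, was above 1 in the Pla2g3+/+ pools and below 1 in the pools labeled Pla2g3-/-. The opposite direction depends on the scaling. Without it, the signal in the pools labeled Pla2g3-/- rose from 178 to 203 for Bub1 and from 988 to 1078 for Ccne1. That of Gins1 still fell, by less than 1.5-fold (log2 -0.24). The log2 difference, AOM/vehicle in the pools labeled Pla2g3-/- minus that in the Pla2g3+/+ pools, was -1.93 for Gins1, -1.76 for Bub1 and -1.62 for Ccne1. The smooth muscle markers fell by 4.34 (median log2) with AOM in the Pla2g3+/+ pools and differed by -0.11 in the others, and their part in these differences was not tested.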

How the results depend on the processing

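Of 157 recomputed counts and medians, 129 kept their direction and stayed within 1.5 times the count or the spread given. Many of the 129 were counts of 0 that stayed 0, among them all limma counts, so that the total says little of the other counts. For KO/WT with vehicle, 10 genes were higher at 1.5-fold and 1 with no filter on dim probes. For KO/WT after AOM, 41 genes were lower and the median was -1.83 when scaled by the epithelial list, 26 were lower at 1.5-fold and 0 at 4-fold, and 2 were higher with the dimmest probe. For AOM/vehicle in the Pla2g3+/+ pools, 36 genes were higher with a median of 1.91 without scaling, 39 with 2.20 when scaled by the epithelial list, 11 with normexp and quantile normalization and 1 at 4-fold, and 1 was lower with the dimmest probe and 1 at 1.5-fold. In the pools labeled Pla2g3-/-, without scaling 9 genes were higher and 0 lower and the median turned from -0.33 to 0.51, beside a shift of all genes to 0.75. There, 2 were lower when scaled by the epithelial list, 1 was higher and 2 lower with normexp and quantile normalization, 1 higher with only genes well above background on both arrays, 0 higher in the deposited table, 4 higher and 12 lower at 1.5-fold and 0 of either at 4-fold. CHR letters were in 12 promoters with only the bases before the start. With the dimmest probe the log2 AOM/vehicle ratio of Tpx2 in the Pla2g3+/+ pools was -1.04. With normexp and quantile normalization Bub1, Cdc6, Cenpf and E2f1 in KO/WT after AOM, 7 genes in AOM/vehicle of the Pla2g3+/+ pools (Bub1, Bub1b, Cdc6, Kif20a, Kif23, Kif2c and Ttk) and Birc5, Gins1 and Ttk in the pools labeled Pla2g3-/- were within 2-fold. The cause of these moves was not tested beyond what the thresholds and scalings themselves set. Signals near background, as for Aurkb, Ccne2, Ttk and Cenpf, limit what can be said of those genes. No array could be left out, since each group has 1. No paired analysis was possible because each group holds 1 array and the labels give no replicate numbers.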
